A study of Artemia parthenogenetic lineage with 3 samples.

Results

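Broad peaks are the listed accessible regions of 1500 bp or more, with width counted as the end minus the start plus 1. They numbered 706 of the 108316 merged peaks (0.652%, exact 95% interval 0.605 to 0.702), and all 706 entered every count given here. They came from ATAC-seq of wild-type cysts of a parthenogenetic lineage of *Artemia*, taken at 30 min from the end of embryonic diapause (embryonic diapause termination, EDT), the ArR_30min group. Their source was Ebinur Lake. Drying and chilling ended the diapause, and incubation was in artificial seawater at 28 °C, lit throughout. The 3 samples were the only group of the series, so broad peaks were compared with the other 107610 peaks inside each library and not between conditions. Whole cysts were used, and cell types within the embryo were not separated.

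A cyst is an encased gastrula-stage embryo whose metabolism and development have stopped, and development resumes when diapause ends. The Tn5 transposase of ATAC-seq cuts DNA that is not packed on nucleosomes, so read density follows chromatin openness. Most open regions in animal genomes are a few nucleosomes wide, around a promoter or an enhancer. Wide open regions are known from other animals as clusters of neighbouring enhancers and as promoters of strongly transcribed genes. An open region is called a peak, and the point of locally highest signal inside it is its summit.

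The library totals were 53022269, 56882821 and 82440231 reads in replicates 1, 2 and 3. The median broad peak held 322.0, 351.5 and 505.5 reads, against 35, 37 and 58 reads in the median other peak. The least covered broad peak in each library held 54, 66 and 114 reads, so counting error was smaller for broad peaks than for the rest of the list. Broad peaks covered 1.30 of 43.2 Mb (3.01%) and held 7.20%, 7.31% and 7.16% of the reads in peaks (mean 7.22% ± 0.0737, SD, n = 3). Their share of reads was thus larger than their share of covered length in every library. The study merged peaks over its diapause, 30 min and 5 h samples for its comparison of libraries, and the present list may be that one. Counts of peaks by position therefore belong to the list rather than to the ArR_30min group by itself.

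Most broad peaks were only slightly wider than the minimum. Their median width was 1725.5 bp (quartiles 1587 and 1979.25 bp), against 316 bp in other peaks. There were 538 broad peaks of 1500 bp to under 2000 bp, 129 of 2000 bp to under 2500 bp, 29 of 2500 bp to under 3000 bp and 10 of 3000 bp or more. The minimum cuts a continuous distribution. Just inside it, the 196 peaks of 1500 bp to under 1600 bp had a median of 3.0 RPM per kb (reads scaled to the size of the library, per kilobase of peak) and 14 summits. Just outside it, the 282 peaks of 1400 bp to under 1500 bp had 3.12 RPM per kb and 13 summits. The share over a gene start was 8.16% inside the limit and 16.7% outside it. The 5 narrowest members, all of 1500 bp, had a median of 4.83 RPM per kb, and the 5 widest peaks below the limit 3.35 RPM per kb.

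The 10 widest broad peaks were 3082 to 3894 bp wide and held 25 to 52 summits each. Of these, 6 were distal intergenic, 4 lay in a gene body, and 0 lay within 3 kb of a gene start. The widest ran from 755169 to 759062 on contig ctg21 (3894 bp, 45 summits) and had 45.1, 42.2 and 46.4 RPM in replicates 1, 2 and 3. It lay between genes, 77.767 kb from the start of its nearest gene, evm.TU.ctg21.12. The next, from 383821 to 387543 on ctg799 (3723 bp), held 52 summits, the most of any broad peak, and had 52.1, 54.3 and 53.9 RPM. Its nearest gene start was 68.305 kb away, that of evm.TU.ctg799.5. Both peaks differed little between libraries, with a coefficient of variation of 0.0481 at ctg21 and 0.0220 at ctg799.

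The peak from 184884 to 188604 on ctg1313 (3721 bp, 51 summits) had 27.7, 32.1 and 30.9 RPM. The peak from 779 to 4387 on ctg1796 (3609 bp, 38 summits) lay inside evm.TU.ctg1796.1 and had 35.4, 42.4 and 56.8 RPM. It was the least even of the 10 widest over the libraries, with replicate 3 highest and a coefficient of variation of 0.244. The peak at 622874 to 626085 on ctg748 (3212 bp, 25 summits) was the weakest of the 10, with 7.24, 8.10 and 9.47 RPM, or 2.58 ± 0.350 RPM per kb (SD, n = 3). The peak at 110126 to 113234 on ctg1029 (3109 bp, 33 summits) was the strongest, with 33.7 ± 1.70 RPM per kb. It lay inside evm.TU.ctg1029.2, a gene of 71.436 kb that held another broad peak at 127811 to 130576 (2766 bp, 45 summits) with 99.8, 92.2 and 91.7 RPM. The widest peaks therefore spanned more than a 10-fold range of signal per kb.

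Signal was denser in broad peaks than in other peaks. The median broad peak had 3.49, 3.43 and 3.52 RPM per kb in replicates 1, 2 and 3 (mean 3.48 ± 0.0463, SD, n = 3), against 2.14, 2.08 and 2.22 RPM per kb in the median other peak (2.15 ± 0.0698). The lowest library median of broad peaks was above the highest of other peaks. The difference of medians on the log2(RPM per kb + 0.216) scale was 0.66, 0.66 and 0.62, with a mean of 0.64 ± 0.03 (SD, n = 3). It was positive in 3 of 3 libraries, and an exact permutation test that flips the sign of each library's difference (two-sided) gave p = 0.25, the smallest value possible with 3 libraries. Leaving out the strongest 1% of all peaks, ranked by mean RPM per whole peak, brought the mean difference to 0.09. That cut took out 351 of the 706 broad peaks. It removes wide peaks at a lower RPM per kb than narrow ones, so the fall is in part set by width. Raising the pseudocount 10 times brought the mean difference to 0.39. Per whole peak, the medians were 6.09, 6.20 and 6.14 RPM in broad peaks and 0.679, 0.668 and 0.716 RPM in other peaks, a log2 difference of 3.04 ± 0.05 that contains the difference in width (p = 0.25, same exact test).

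Width and signal were measured on overlapping reads and are not independent measures. A nearer comparison is with the 3013 peaks of 1000 bp to under 1500 bp, where the medians were 3.01, 2.58 and 2.73 RPM per kb. The log2 difference of broad peaks to these was 0.20, 0.39 and 0.34 (mean 0.31 ± 0.10, exact p = 0.25). Among broad peaks, the median climbed from class to class of width, as the plot of signal by width shows. It was 3.30, 3.13 and 3.21 RPM per kb at 1500 bp to under 2000 bp and 8.58, 9.44 and 9.28 RPM per kb at 3000 bp or more, where n is 10 peaks. Across single broad peaks the relation was weak, with a Spearman rho of 0.163 between width and RPM per kb (n = 706 peaks of the same libraries, a description).

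**Figure D1:**
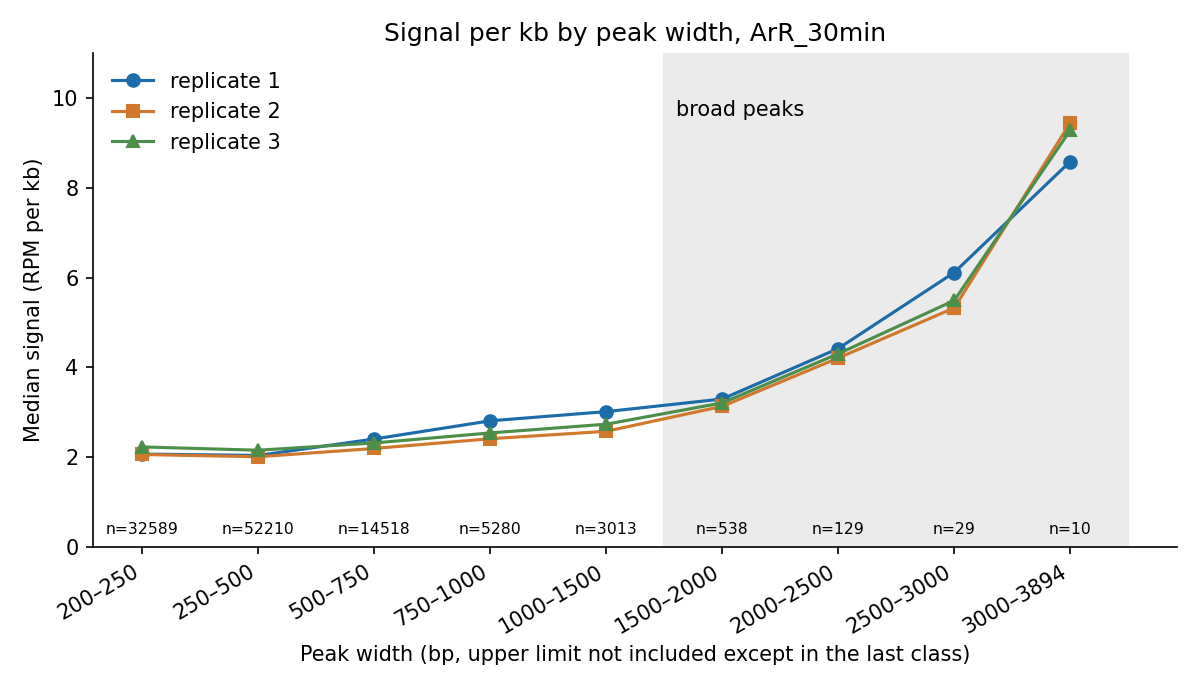
Median signal per kb (RPM per kb, y axis) by class of peak width (bp, x axis) in replicates 1, 2 and 3, with the number of peaks printed above the axis and broad peaks shaded. The medians lie near 2 in the narrowest classes and reach 8.58, 9.44 and 9.28 RPM per kb in the 10 peaks of 3000 bp or more.

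By single peaks, 512 of 706 broad peaks (72.5%) were above the median RPM per kb of all peaks in each replicate, against 30.2% of all peaks. A mean of at least 1 RPM was found in 706 of 706 broad peaks, against 29.9% of all peaks. A mean of at least 10 RPM was found in 193 broad peaks (27.3%, exact 95% interval 24.1 to 30.8), against 0.373% of all peaks. Broad peaks made up 47.8% of the 404 peaks at that level. RPM per peak contains the width, so both shares depend in part on the rule that chose the peaks. The quartiles of broad peaks were 2.31 and 5.60 RPM per kb, with extremes of 0.819 and 501 RPM per kb.

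The strongest broad peaks per kb were few and carried much of the signal. The 10 strongest held 34.0%, 30.6% and 31.7% of all reads in broad peaks in replicates 1, 2 and 3. Of them, 7 were distal intergenic, 2 lay in a gene body, 1 lay within 3 kb of a gene start, and 0 covered one. The first, from 1150435 to 1152441 on ctg479 (2007 bp, 18 summits), had 1096, 934 and 987 RPM, or 501 ± 41.1 RPM per kb (SD, n = 3). The second, from 105928 to 107892 on ctg2101 (1965 bp, 14 summits), had 943, 741 and 858 RPM. The third, from 1968 to 3563 on ctg1300 (1596 bp), had 319, 260 and 274 RPM and only 7 summits. These 3 peaks were highest in replicate 1 and stood well above the rest. Reads were aligned to the assembly of a related species, and repeated sequence at these peaks could not be checked. The fourth, from 7558 to 9057 on ctg239 (1500 bp), had 89.0, 65.0 and 66.3 RPM.

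None of these 4 peaks lay within 3 kb of a gene start. The nearest starts were 47.270 kb away at ctg479 (evm.TU.ctg479.19), 5.862 kb at ctg2101 (evm.TU.ctg2101.3), 55.431 kb at ctg1300 (evm.TU.ctg1300.2) and 154.315 kb at ctg239 (evm.TU.ctg239.2). The next was the peak at 161839 to 164083 on ctg1896 (2245 bp, 31 summits), with 110, 90.2 and 91.5 RPM. Replicate 1 was the highest library in 8 of the 10 strongest, against 35.8% of all broad peaks and 36.6% of other peaks.

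The strongest broad peak near a gene start was at 563018 to 564971 on ctg496 (1954 bp, 24 summits), 0.584 kb before the start of evm.TU.ctg496.7. It had 74.7, 73.0 and 76.9 RPM, with a coefficient of variation of 0.0258, the lowest of the 10 strongest. Inside the same gene of 67.777 kb lay another broad peak at 613546 to 615656 (2111 bp) with 56.1, 53.2 and 54.1 RPM, and one more at 632180 to 634304 (2125 bp) with 12.2, 10.6 and 10.2 RPM. Both stronger peaks were nearly level across the libraries, and the peak at 632180 was lower than they were in each library.

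The 5 weakest broad peaks per kb were all distal intergenic and had 0.819 to 1.14 RPM per kb. The weakest, from 230136 to 231703 on ctg1177 (1568 bp), had 1.04, 1.18 and 1.64 RPM and 5 summits. The next, from 2620216 to 2621890 on ctg92 (1675 bp, 7 summits), had 1.24, 1.86 and 1.39 RPM. Both were lowest in replicate 1. Replicate 1 was the highest library in 0 of these 5 peaks, against 35.8% of all broad peaks. They lay 164.628 kb and 100.417 kb from their nearest gene starts.

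**Figure D2:**
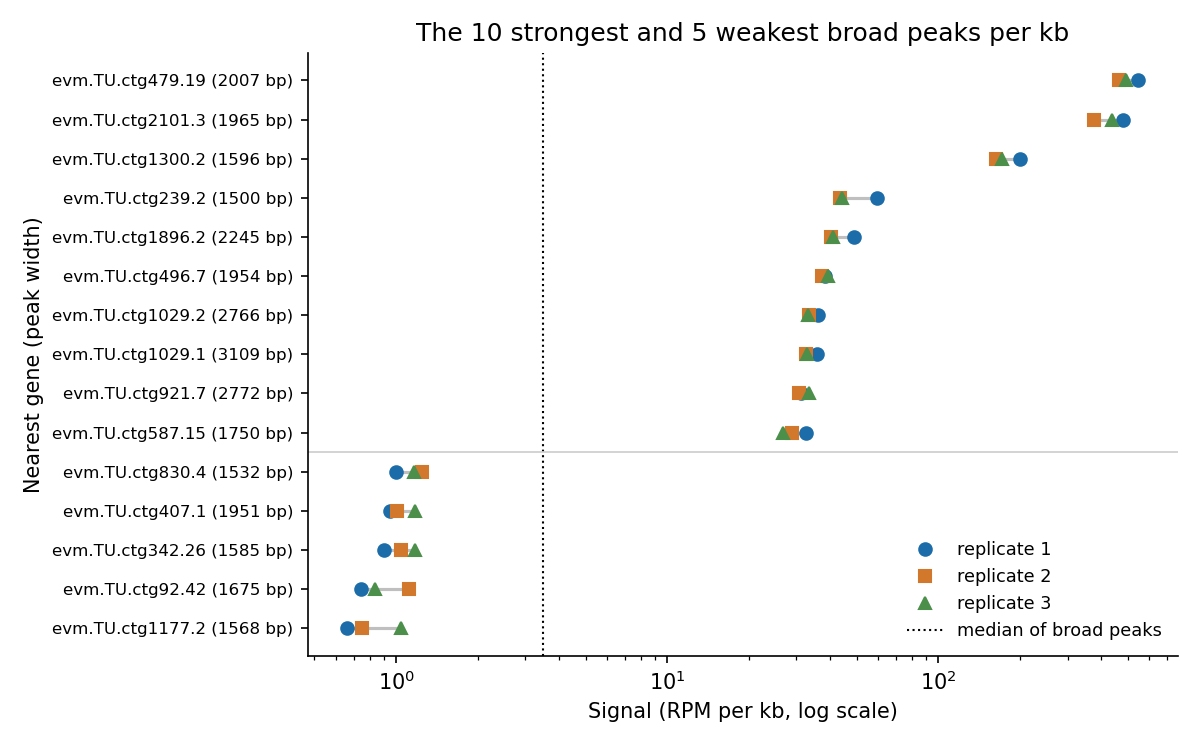
Signal (RPM per kb, log scale, x axis) of the 10 strongest (upper rows) and 5 weakest (lower rows) broad peaks in replicates 1, 2 and 3, each row named by the nearest gene and the peak width. The dotted line is the median over broad peaks of the mean of the replicates, 3.50 RPM per kb, and the means of the rows run between 0.819 and 501 RPM per kb.

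Broad peaks held many listed summits. Every one held 5 summits or more, against 15.5% of all peaks. The median was 17 summits (quartiles 13 and 21, range 5 to 52) in broad peaks, 9 in peaks of 1000 bp to under 1500 bp, and 1 over all other peaks. A wider peak has more room for summits, but the density differed too, with medians of 9.75, 7.93 and 4.95 summits per kb in the same order. The summits are listed once for the merged list, so these values have no replicates and no test. The list may hold summits from the study's other time points too. It may also list summits of several libraries at nearby positions, so summits need not be separate open sites. Counting each summit position once left the median of broad peaks at 17, but this joins identical positions only.

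The summits were spread over the length of a broad peak. Its 5 equal parts held 18.7%, 21.2%, 22.2%, 20.7% and 17.2% of the summits of all broad peaks. In peaks of 1000 bp to under 1500 bp, the same parts held 15.8%, 23.1%, 23.6%, 23.2% and 14.3%, so that the outer parts held less. The parts are fractions of the width and so are longer in bp in broad peaks, and what this does to the shares was not tested. The largest distance between neighbouring summits in a broad peak had a median of 370.5 bp. In 599 broad peaks (84.8%, exact 95% interval 82.0 to 87.4) there was no distance over 500 bp, against 93.0% of peaks of 1000 bp to under 1500 bp. At a limit of 300 bp, the shares without such a distance were 20.3% of broad peaks and 41.4% of peaks of 1000 bp to under 1500 bp. A peak with more summits has more distances that can pass a limit, and the medians were 17 and 9 summits. These shares therefore depend on width and cannot show that summits were further apart in broad peaks. Broad peaks with no distance over 500 bp had a median of 3.54 RPM per kb, against 3.20 RPM per kb in those with one, while at 300 bp the medians were 3.51 and 3.49 RPM per kb. The longest distance without a summit was 844 bp.

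Broad peaks with denser summits had more signal per kb. Broad peaks were split by summit density into 3 near-equal sets. The set with the fewest summits per kb (n = 235) had medians of 2.15, 2.10 and 2.20 RPM per kb in replicates 1, 2 and 3. The middle set (n = 235) had 3.66, 3.63 and 3.68 RPM per kb, and the densest set (n = 236) had 5.28, 5.30 and 5.50 RPM per kb. The medians of the 3 sets did not overlap in any library, and their median widths were 1681, 1711 and 1802.5 bp. Spearman's rho between summits per kb and RPM per kb was 0.661 over the 706 broad peaks and 0.442 over the other peaks, and 0.657 without the 10 widest. These are descriptions across peaks of the same libraries, and summits and signal rest in part on the same reads.

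The 5 broad peaks with the most summits held 45 to 52, and 4 of these were distal intergenic. The 3 with the fewest held 5 and were all distal intergenic. One of these was the weakest broad peak, on ctg1177. Another, at 1818624 to 1820393 on ctg215 (1770 bp), had 3.94, 2.18 and 2.91 RPM, so that replicate 1 was highest and the coefficient of variation was 0.294. The last, at 275800 to 277315 on ctg1178 (1516 bp), had 1.66, 2.02 and 2.10 RPM, with replicate 1 lowest.

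Most broad peaks lay away from genes. By position, 437 (61.9%, exact 95% interval 58.2 to 65.5) were distal intergenic, against 55.1% of peaks of 1000 bp to under 1500 bp and 52.5% of all other peaks. Gene bodies held 192 broad peaks (27.2%, 23.9 to 30.6), against 25.7% of peaks of 1000 bp to under 1500 bp and 39.1% of all other peaks. A further 31 (4.39%) lay within 3 kb of a gene start without covering it, against 4.41% of peaks of 1000 bp to under 1500 bp and 5.44% of all other peaks, and 1 lay within 300 bp past a gene end. Exons, introns and UTRs were not separated, since only gene ends were used here. Distal broad peaks lay a median of 51.7 kb from the nearest start and distal other peaks 51.47 kb, so distance within this class was alike.

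Of the 192 broad peaks in gene bodies, 160 lay inside the gene of their nearest start and 32 inside another listed gene. The genes that held them had a median length of 77.364 kb. Long genes were not particular to broad peaks. The nearest genes of gene body peaks had median lengths of 66058 bp for broad peaks and 72459 bp for peaks of 1000 bp to under 1500 bp. For all other peaks in gene bodies the median was 79600.5 bp. Gene body broad peaks had 3.97, 3.92 and 4.0 RPM per kb, against 3.33, 3.33 and 3.39 RPM per kb in distal broad peaks. The log2 difference was 0.23 ± 0.01 (SD, n = 3), the same way in 3 of 3 libraries (exact p = 0.25). Away from gene starts, broad peaks were above other peaks by 0.82 ± 0.04 in gene bodies, 0.68 ± 0.06 within 3 kb of a start without covering it and 0.63 ± 0.03 in distal intergenic DNA (log2 of medians, exact p = 0.25 each).

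**Figure D3:**
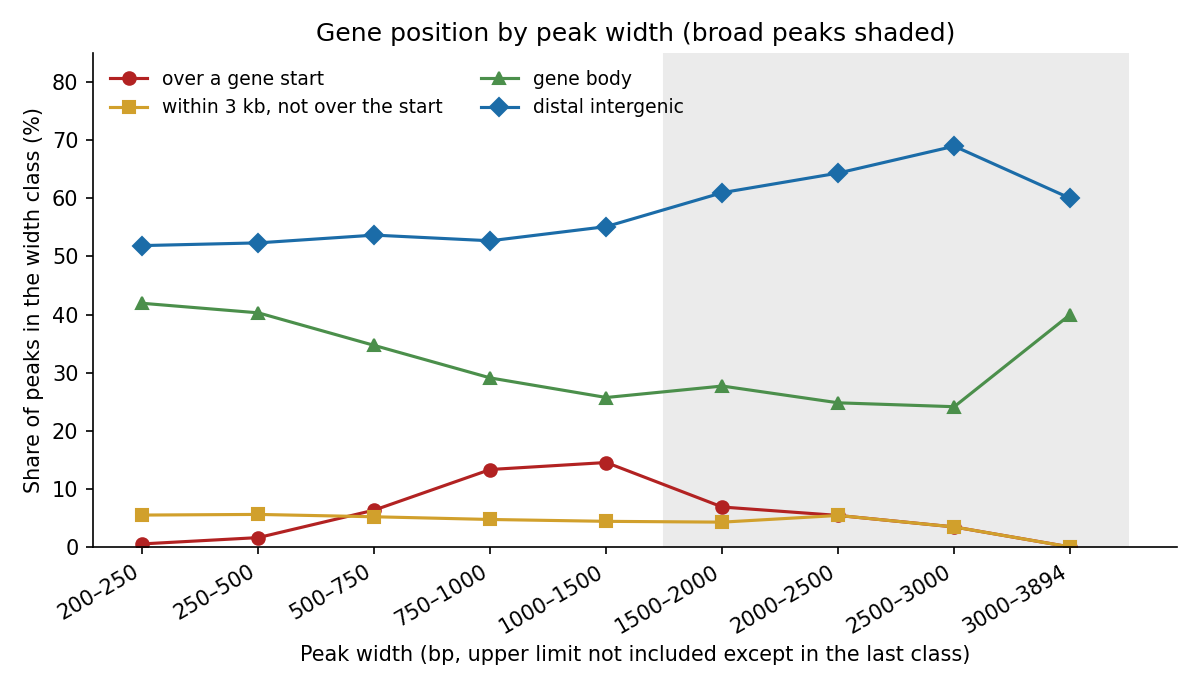
Share of peaks (%, y axis) over a gene start, within 3 kb but not over it, in gene bodies and in distal intergenic DNA, by class of peak width (bp, x axis), with broad peaks shaded. The share over a gene start is 14.5% at 1000 bp to under 1500 bp and 6.88%, 5.43%, 3.45% and 0% in the broad classes.

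Gene starts are the ends of gene models, and a start peak is one that covers such an end. Among broad peaks, 45 covered a gene start (6.37%, exact 95% interval 4.69 to 8.44), against 2.89% of all peaks. This share runs with width in an uneven way. It was 0.531% in peaks of 200 bp to under 250 bp, 13.3% at 750 bp to under 1000 bp and 14.5% at 1000 bp to under 1500 bp, then 6.88% at 1500 bp to under 2000 bp and 5.43% at 2000 bp to under 2500 bp. A wide peak covers any given point more easily, so the start was also asked to lie in the central 300 bp. By that measure, 12 broad peaks (1.70%) were start peaks, against 7.33% of peaks of 1000 bp to under 1500 bp and 2.11% of all other peaks.

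Start peaks were the class in which broad peaks did not stand above other peaks. The 45 broad start peaks had medians of 3.06, 2.52 and 2.49 RPM per kb, against 3.59, 2.53 and 2.77 RPM per kb in the 3081 other start peaks. The log2 differences were -0.22, -0.01 and -0.14 (mean -0.12 ± 0.11, SD, n = 3), and the exact test gave p = 0.25. The difference in replicate 2 was near 0, while the other two were negative. Subtracting the difference at distal intergenic peaks left -0.86, -0.65 and -0.74 (mean -0.75 ± 0.10, negative in 3 of 3 libraries, exact p = 0.25, the smallest possible). Broad start peaks were also below the other broad peaks by 0.38 ± 0.16 on the log2 scale, whereas other start peaks were above other peaks elsewhere by 0.43 ± 0.25 (exact p = 0.25 each).

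**Figure D4:**
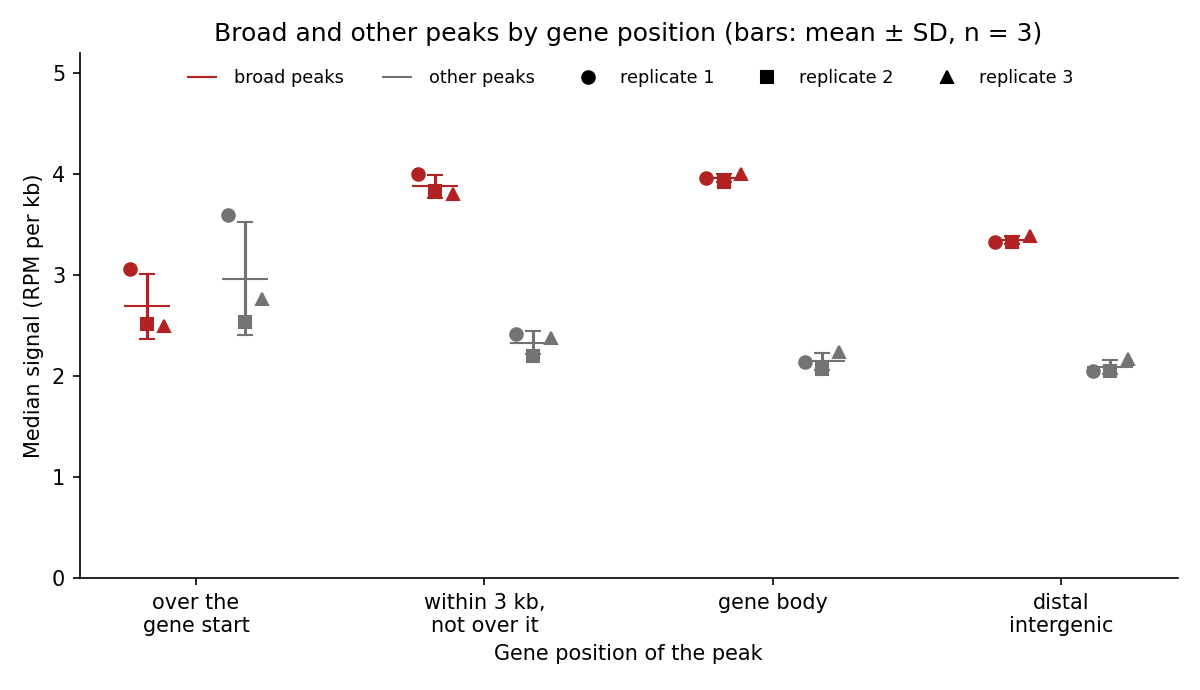
Median signal (RPM per kb, y axis) of broad peaks (left of each pair) and other peaks (right) by gene position, with 1 marker per replicate and bars for the mean ± SD (n = 3). Broad peaks are above other peaks in gene bodies, in distal intergenic DNA and within 3 kb of a start, while over the gene start the groups overlap, at 2.69 ± 0.322 and 2.97 ± 0.557 RPM per kb.

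The broad start peak with the most signal per kb covered the start of evm.TU.ctg1103.1, at 63089 to 64630 on ctg1103 (1542 bp, 20 summits). It had 16.8, 12.9 and 15.1 RPM, or 9.68 ± 1.24 RPM per kb (SD, n = 3), highest in replicate 1. The study's annotation gives this gene homogentisate 1,2-dioxygenase activity, a step in the breakdown of phenylalanine and tyrosine. It also lists other terms for the gene, such as RNA metabolic process. The next covered the start of evm.TU.ctg296.18, at 1437882 to 1439553 on ctg296 (1672 bp), with 15.3, 10.9 and 11.7 RPM, again highest in replicate 1. The third, at 188640 to 190224 on ctg879 (1585 bp) over the start of evm.TU.ctg879.4, had 14.1, 10.5 and 11.1 RPM. Here too replicate 1 was highest, and replicates 2 and 3 were close.

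The peak over evm.TU.ctg2069.4 followed, with 11.2, 8.98 and 9.52 RPM at 176754 to 178309 on ctg2069 (1556 bp). The peak over evm.TU.ctg1271.2, at 32385 to 33964 on ctg1271 (1580 bp, 23 summits), had 9.77, 7.65 and 10.02 RPM, with replicate 2 lowest. The peak over evm.TU.ctg2359.1.1 had 8.81, 9.23 and 8.14 RPM and was the only one of these 10 with its highest value in replicate 2. The other 4 covered the starts of evm.TU.ctg434.12, evm.TU.ctg2273.2, evm.TU.ctg96.26 and evm.TU.ctg227.8 and had 4.17 to 4.80 RPM per kb. The study's annotation gives evm.TU.ctg227.8 DNA-directed RNA polymerase activity and protein transporter activity, among other terms. Its start peak had 8.02, 4.98 and 5.77 RPM, so that replicate 1 stood apart. The peak over evm.TU.ctg561.33, annotated as a type II DNA topoisomerase, which untangles DNA strands, was weaker and showed the same order, with 5.22, 2.97 and 3.54 RPM.

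Broad start peaks reached to both sides of the start, a median of 929 bp upstream and 783 bp downstream, and 25 of 45 (55.6%, exact 95% interval 40.0 to 70.4) reached further upstream, against 53.1% of other start peaks. Covering 2 listed starts at once was rare and occurred in 3 broad peaks, whose nearest genes were evm.TU.ctg1065.1, evm.TU.ctg230.1 and evm.TU.ctg511.21. They had 3.71, 3.68 and 5.04 RPM as the mean of the replicates. A whole listed gene was covered in 2 cases. The gene evm.TU.ctg1450.9, of 573 bp, lay under a broad peak of 2212 bp with 5.05, 5.59 and 5.46 RPM, and evm.TU.ctg5511.1, of 372 bp, under one of 1708 bp with 7.09, 4.73 and 5.33 RPM.

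Readable annotation from the study's supplement covered 567 listed genes, a list the study drew from these samples, which is not independent evidence about them. It covered 30 of the 616 genes nearest to a broad peak, 4 of them with a broad peak over the start. Among the others, evm.TU.ctg1232.1, 195.176 kb long, held 2 broad peaks far inside the gene. Its annotation is mixed, with transcription factor, calmodulin binding, spectrin binding and endonuclease terms. The peak at 76105 to 77720 on ctg1232 had 11.3, 9.35 and 10.2 RPM, and the peak at 60338 to 61963 had 8.92, 9.14 and 10.1 RPM. The gene evm.TU.ctg345.15 was annotated with sequence-specific transcription factor activity. It held a broad peak at 662383 to 663900 on ctg345 with 10.4, 7.10 and 7.02 RPM, highest in replicate 1. The start of evm.TU.ctg66.12, annotated as a structural constituent of the ribosome, had a broad peak 2.815 kb before it (2093 bp), with 10.1, 7.79 and 7.96 RPM.

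The study singled out 5 receptor genes and 6 signal transduction genes, on these samples among others. Of these 11, 1 was the nearest gene of a broad peak, as were 616 of all 12002 listed genes. So small a count does not set these genes apart from the list. The gene was evm.TU.ctg71.25, a G-protein-coupled receptor (a membrane protein that relays outside signals into the cell). Its broad peak lay between genes at 2084255 to 2086583 on ctg71 (2329 bp, 15 summits), 97.287 kb before the start. It had 3.19, 5.34 and 3.25 RPM, with replicate 2 highest, and its coefficient of variation of 0.313 was the second largest of all broad peaks. The widest peak near any of the other 10 genes was 1308 bp, at evm.TU.ctg321.8.

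Broad peaks were nearest to 616 of 12002 listed genes, and 550 of these had 1 broad peak, 46 had 2, 16 had 3 and 4 had 4. Of these, evm.TU.ctg1058.14 had 4 in distal DNA, over 132.341 kb of ctg1058, with 7.49 to 16.5 RPM. Another, evm.TU.ctg1737.1, had 2 inside the gene and 2 beyond it, with 8.91 to 11.4 RPM. A further one, evm.TU.ctg424.7, had 4 over 80.478 kb at one end of ctg424, all more than 400 kb before its start and with 3.02 to 16.9 RPM. The last, evm.TU.ctg3295.1.1, had 4 within 27.806 kb.

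The peaks were spread over 506 of the 2098 contigs with a listed peak, with 372 contigs holding 1. The largest number was 7 of 264 listed peaks, on ctg49, at 1.67 to 6.24 RPM per kb. Another 7 contigs held 5 each. The share of listed peaks that were broad was higher on short contigs. Contig span here is the furthest listed position of a peak or gene, since contig lengths were not given. On contigs spanning under 50 kb, 21 of 604 peaks were broad (3.48%, exact 95% interval 2.16 to 5.27), and on contigs of 2 Mb or more, 133 of 34008 (0.391%, 0.328 to 0.463). The shares between were 1.74%, 1.01%, 0.726% and 0.518% in order of span, and all intervals cover counting error only.

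Signal per kb of broad peaks was also highest on the shortest contigs, without falling in strict order of span. The median broad peak had 5.86, 5.63 and 5.64 RPM per kb on contigs under 50 kb and 3.08, 2.99 and 3.14 RPM per kb on contigs of 2 Mb or more. Over the replicates it was 3.19 RPM per kb at 0.5 to 1 Mb and 3.60 RPM per kb at 1 to 2 Mb. The median of other peaks (mean of the replicates) was 2.50 RPM per kb on contigs under 50 kb and 2.10 RPM per kb on contigs of 2 Mb or more. Peaks of 1000 bp to under 1500 bp also took a larger share of short contigs, 5.30% at under 50 kb and 2.30% at 2 Mb or more. Contigs spanning under 200 kb held 15.4% of broad peaks, against 8.96% of peaks of 1000 bp to under 1500 bp and 5.15% of other peaks. In the first 5 kb of a contig began 5.10% of broad peaks, against 3.02% of peaks of 1000 bp to under 1500 bp and 1.24% of other peaks.

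**Figure D5:**
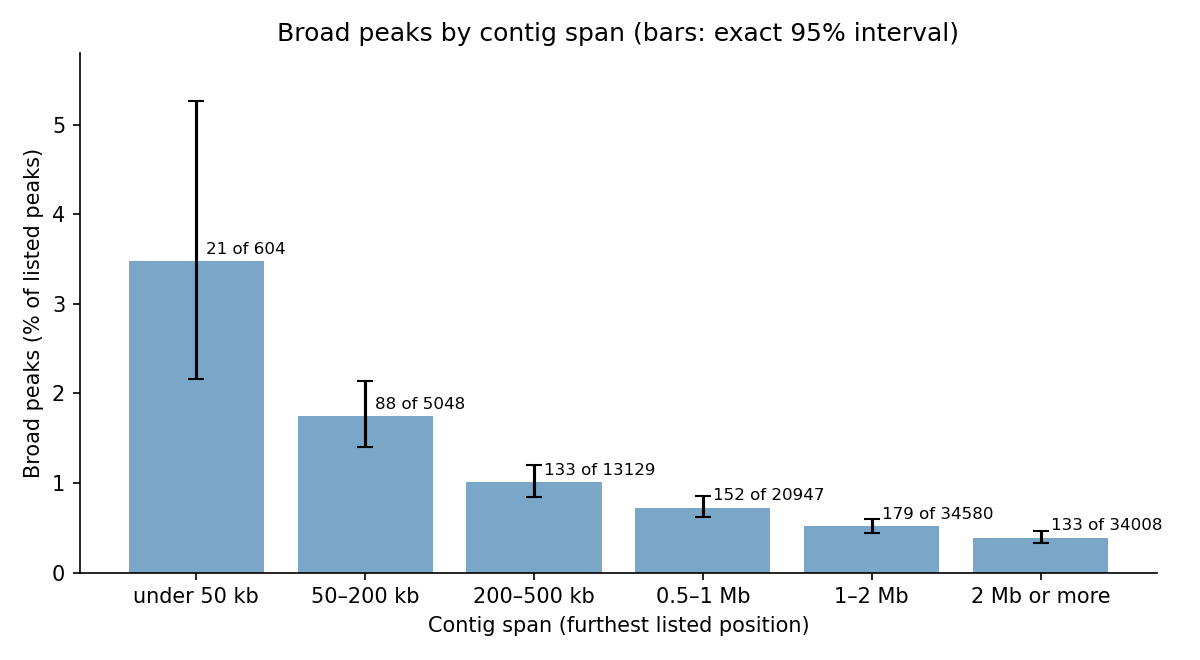
Share of listed peaks that were broad (%, y axis) by contig span (x axis), with exact 95% binomial intervals for counting error and the counts printed beside the bars. The share is 3.48% on contigs under 50 kb and 0.391% on contigs of 2 Mb or more.

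On ctg3295.1, which spanned 38.588 kb, 4 of 10 listed peaks were broad (40%). The first began at position 1 (1799 bp) and had 14.9, 15.5 and 16.0 RPM. The second, at 9917 to 11687, had 10.6, 9.97 and 9.47 RPM, and the third, at 18723 to 20389, had 15.6, 16.2 and 16.7 RPM. All 3 were even across the libraries. The last, at 26099 to 27807 and 2.020 kb before the start of evm.TU.ctg3295.1.1, had 12.3, 13.8 and 12.8 RPM. The middle pair lay inside that gene of 15.996 kb.

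Contigs ctg2343 and ctg2359.1 held 3 each within a short stretch. The 3 on ctg2343 lay in the far part of evm.TU.ctg2343.1 and had 4.64, 5.12 and 4.11 RPM at 4525 to 6346, 16.7, 14.8 and 15.8 RPM at 11449 to 14435, and 19.3, 16.5 and 18.2 RPM at 23441 to 25836. Per kb, the peak nearest the contig's first position was lowest, at 2.54 RPM per kb, against 5.27 and 7.52 RPM per kb at the other two (means of the replicates). Those on ctg2359.1 lay before, over and behind the start of evm.TU.ctg2359.1.1, at 7.64, 10.02 and 8.39 RPM before it, 8.81, 9.23 and 8.14 RPM over it and 10.8, 11.1 and 9.76 RPM behind it. The 3 peaks of ctg2359.1 were within a narrow range.

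Such rows were the exception. Of 200 pairs of neighbouring broad peaks on a contig, 22 lay within 10 kb of each other, on 18 contigs, and 9 of these pairs were on contigs spanning under 200 kb. The closest pair was separated by 159 bp on ctg142, where peaks of 1691 bp and 2483 bp inside evm.TU.ctg142.12 had 7.64, 7.01 and 7.45 RPM and 11.7, 10.4 and 11.2 RPM. The median distance from a broad peak to its nearest listed peak of any width was 4110.5 bp, against 3555 bp for other peaks.

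The replicates were closer to each other at broad peaks than at other peaks. Pearson's r between log2 RPM values across broad peaks was 0.965, 0.975 and 0.987 for replicates 1 and 2, 1 and 3, and 2 and 3. It was 0.888, 0.925 and 0.957 across peaks of 1000 bp to under 1500 bp and 0.867, 0.885 and 0.893 across other peaks. The coefficient of variation of a broad peak over the 3 libraries had a median of 0.0973, against 0.140 for peaks of 1000 bp to under 1500 bp and 0.204 for other peaks. Both measures contain counting error, which was larger at other peaks because they held fewer reads. The biological coefficient of variation of edgeR, which takes out counting error, was 0.110 at broad peaks, 0.149 at peaks of 1000 bp to under 1500 bp and 0.189 at other peaks. Replicate 1 decided part of the value at broad peaks, which was 0.0729 without it. Away from gene starts, with all replicates, the value was 0.108 at broad peaks and 0.138 at peaks of 1000 bp to under 1500 bp.

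Replicate 1 ran apart at gene starts, at broad peaks less than at others. Its median ratio to the geometric mean of replicates 2 and 3 was 0.977 over all broad peaks, 1.21 at the 45 broad start peaks and 0.964 at the other 661. At other peaks it was 1.37 over a start and 0.994 elsewhere. At the 8 broad start peaks of 2000 bp or more it was 1.01. Replicate 1 was above that mean in 315 broad peaks (44.6%), against 50.5% of all peaks, and in 38 of the 45 broad start peaks. Being 1 library, replicate 1 allows no test. The signal of broad start peaks above is therefore also given for replicates 2 and 3 singly, where the medians were 2.52 and 2.49 RPM per kb, against 2.53 and 2.77 RPM per kb in other start peaks.

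The least even broad peak over the libraries was at 543612 to 545154 on ctg499 (1543 bp), inside evm.TU.ctg499.10, with 6.07, 3.67 and 3.40 RPM and a coefficient of variation of 0.336. The third least even, inside evm.TU.ctg274.38 at 2783848 to 2785503 on ctg274 (1656 bp), had 7.79, 4.24 and 5.54 RPM. Both were highest in replicate 1. The most even was at 266025 to 267814 on ctg2604 (1790 bp, 16 summits), with 7.43, 7.33 and 7.41 RPM, followed by one at 653996 to 656056 on ctg2224 (2061 bp, 29 summits), with 13.2, 13.3 and 13.4 RPM. The only broad peak classed as past a gene end, at 1110579 to 1112303 on ctg845 (1725 bp), came next, with 8.56, 8.65 and 8.48 RPM. These 3 differed by less than 3% between libraries.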

How the data were processed

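Reads were trimmed, aligned with BWA to the ASM3288406v1 assembly of the related *Artemia franciscana*, filtered and deduplicated, and peaks were called with MACS2, by the authors. The submitters' processing notes name both tools. The authors deposited 1 table of merged peaks with raw read counts per peak and library. The deposited table also gives RPM, which equals the count plus 1 scaled by a library total to within 0.0005%. The recovered totals suit a count of both mates of a pair, which the sources do not state. Intervals printed are for numbers of peaks and cover counting error only. Columns of samples outside this series numbered 0. Coordinates are 1-based as deposited, and the table pairs gene identifiers with no names.

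RPM per kb was RPM divided by width. Medians were compared on the log2(value + pseudocount) scale, with a pseudocount of 0.216 RPM per kb or 0.0691 RPM, 0.1 of the median over all peaks. Comparisons used an exact permutation test, two-sided, that flips the sign of each library's difference over the 3 libraries and cannot give p below 0.25. Peaks are not replicates, and no test was made over them. The study calls the samples biological replicates and their cysts 1 batch, so SD and p measure only the spread between these samples. Shares carry exact binomial 95% intervals. The edgeR 4.0.16 common dispersion used TMM factors over all peaks and an intercept, and was tested on simulated data. Classes were, by priority, over the start, within 3 kb of it, gene body, within 300 bp past a gene end, and distal intergenic. Python 3.11.15, pandas 2.3.3, numpy 2.4.6, scipy 1.17.1, matplotlib 3.10.9 and R 4.3.3 were used. No library pair held identical counts throughout, and chi-square over broad peaks was 3.62 to 10.4 per degree of freedom.

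Peaks named are the 10 widest, the 10 strongest and 5 weakest per kb, the extremes in summits and in variation, the 10 strongest over a start, and those on the leading contigs, at genes with 4, or at genes the study singled out. Genes with annotation and the pairs on ctg142, ctg496, ctg2343 and ctg2359.1 were named after their values were seen. The members and lists were chosen with earlier results of these data known. Alternatives covered the pseudocount, the width limit, filters on low and high values, scaling, position class, summit density, contig choice and leaving out each replicate.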

Additional observations from a re-analysis of the deposited data

How the results depend on the processing

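The log2 difference of signal per kb, broad minus other peaks, was positive in 16 of 18 alternatives. It was negative at gene starts, -0.12 against other start peaks and -0.13 against start peaks of 1000 bp to under 1500 bp. It was 0.09 without the strongest 1% of peaks by RPM per whole peak, a cut that leaves out 351 of the 706 broad peaks. That cut removes wide peaks at a lower RPM per kb than narrow ones. It therefore cannot show whether few strong members carry the difference. The difference was 0.39 with a pseudocount 10 times larger and 0.39 with a limit of 1000 bp. With a limit of 2000 bp it was 1.01, and without each replicate in turn 0.64 to 0.66. No pairing of samples across groups was possible because the series holds 1 group. The tests paired broad and other peaks inside each library. The excess of summits over other peaks was 16, and 4.80 as summits per kb, 9 with a limit of 1000 bp and 24 with a limit of 2000 bp. The share over a gene start of 6.37% became 13.0% with a limit of 1000 bp, 10.8% with the start within 3 kb and 1.70% with the start in the central 300 bp. The distal intergenic share of 61.9% became 56.4% with a limit of 1000 bp. The coefficient of edgeR, 0.110, was 0.113 without TMM, 0.0955 with counts halved, 0.134 over a start, 0.108 away from it and 0.0729 to 0.136 without each replicate. Counts were halved by division and not drawn at random, so that value does not show the effect of lower depth. The ratio of replicate 1 to the others, 0.977, was 1.21 over a start and 0.964 away from it. The contigs of at least 1 Mb (0.55), contigs without their first 5 kb (0.66), the list without its 3 strongest broad peaks (0.64), the start peaks of 1000 bp to under 1500 bp, the edgeR split by start, the count of distinct summit positions (again 16) and the contigs of at least 200 kb (417 with a broad peak, against 506) were chosen after seeing the data. The lowest count of a broad peak in any library was 54 reads. Whether depth shaped the calling, width or summits of the peaks was not tested. The 3 libraries cannot give p below 0.25.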
